A study of Mus musculus with 69 samples.

Results

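The genes for nucleotide, serine and one-carbon synthesis were examined as a group of 33 genes chosen by name, with earlier results of these data known. A share of all genes set beside a count is therefore a description and not a test. All 33 were found among the 24309 gene symbols shared by the 3 count tables of the study. All 33 also passed the filter on low counts in every fit. They comprise 6 genes of de novo purine synthesis to inosine monophosphate (IMP), 2 of phosphoribosyl pyrophosphate (PRPP) supply, 4 of the steps from IMP to AMP and GMP, 5 of pyrimidine synthesis, 8 of salvage and interconversion, 3 of serine synthesis, 2 of the cytosolic and 3 of the mitochondrial one-carbon pathway. The transcription factor STAT5 is encoded by the genes Stat5a and Stat5b, and mice left with 1 functional allele were compared with wild-type mice. WT mice carry all alleles (Stat5a+/+ Stat5b+/+), AAB mice lack both Stat5a alleles and 1 of Stat5b (Stat5a-/- Stat5b+/-), and BBA mice lack both Stat5b alleles and 1 of Stat5a (Stat5a+/- Stat5b-/-). The deletions are germline, so that every cell of the animal carries them. RNA-seq libraries were made from CD8+ T cells in 48 samples and from naive CD4+ T cells in 17. The CD8+ cells were naive (Tnv, CD44 low CD62L high), memory (Tcm, CD44 high CD62L high) or effector (Tem, CD44 high CD62L low), sorted from pooled lymph nodes and spleen. There were 2 libraries of each genotype for Tnv and Tcm in each of 3 conditions (no cytokine, IL-7, IL-15) and for Tem in 2 (no cytokine, IL-15). The naive CD4+ cells came without cytokine (3 WT, 2 AAB and 2 BBA libraries) or with IL-7 (3 WT, 2 AAB and 3 BBA), and 2 further CD4+ libraries whose labels contradict each other on the cytokine entered no comparison. The labels give 12 to 16 h of culture for all libraries, whereas the study's methods describe the cells without cytokine as taken directly after isolation. Culture and cytokine then change together in every comparison of a cytokine with no cytokine. The last 4 libraries are labelled as CD8+ cells of AAB mice that were activated in vitro and transduced with a retrovirus, 2 with constitutively active STAT5A (CA-STAT5A) and 2 with the empty vector.

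Each CD8+ library held 5926139 to 25612758 reads counted on genes, each CD4+ library 6705004 to 34118295, and each retroviral library 11020965 to 16516525. The lowest count of any of the 33 genes in an assigned library was 48, 64 and 12 in these sets. Levels are given as CPM, read counts scaled to a common library size with TMM factors set within each table. Outside the retroviral set, Stat5a was at 32.5 to 106 CPM in WT, 0.807 to 4.88 in AAB and 35.01 to 49.2 in BBA. Stat5b was at 164 to 373 CPM in WT, 78.4 to 202 in AAB and 48.8 to 135 in BBA, so that BBA libraries kept reads on the deleted gene. Replicate 2 of WT Tnv with IL-15 stood apart, with Cd4 at 235 CPM and Cd8a at 693, against 0.0795 to 11.9 and 955 to 2016 in the other 47 CD8+ libraries. The retroviral libraries went against their label. Cd8a was at 1.40 to 3.16 CPM there, Cd8b1 at 0.303 to 1.56 and Cd3e at 2.79 to 14.8, against 693 to 2016, 517 to 1335 and 331 to 574 in the 48 CD8+ libraries. Ncr1, a receptor gene of natural killer cells, was at 1124 to 1453 CPM in the retroviral libraries and at most 5.01 in the CD8+ set. Other T cell markers were not as low. Cd3d was at 6.07 to 96.0 CPM in the retroviral libraries, Cd3g at 10.3 to 102 and Lck at 735 to 886. In the CD8+ set these were at 255 to 578, 284 to 663 and 671 to 1111. By their Xist and Y-linked reads, all CD4+ libraries and the 6 Tnv libraries with IL-7 came from male mice. The Tcm libraries with IL-7 were mixed, with 4 male, both of WT among them, and 2 female. Each retroviral group had 1 male and 1 female library, and all other CD8+ libraries were female. The study describes its RNA-seq replicates as different mice of a group, and the labels do not name the mouse behind a library. In bulk libraries, fewer cells of a type and less RNA per cell cannot be told apart.

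Proliferating T cells build purines and pyrimidines from amino acids, carbon dioxide and one-carbon units carried by folate. PPAT, GART, PFAS, PAICS, ADSL and ATIC assemble the purine ring on PRPP, and CAD, DHODH, UMPS and CTPS make the pyrimidines. PHGDH, PSAT1 and PSPH make serine, which SHMT1 in the cytosol and SHMT2 in mitochondria split into glycine and a one-carbon unit, and the MTHFD enzymes carry that unit to the formate that purine synthesis uses. STAT5 binds DNA at GAS motifs, and MYC, a transcription factor long known to drive many of these genes, binds at E-boxes.

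Promoter sequences of 31 of the 33 genes were found in a RefSeq table of mouse promoters (build GRCm38.p6, 250 bases before to 50 after the start of transcription). Each was searched for the E-box CACGTG and the GAS motif TTCNNNGAA, which both read the same on either strand. The E-box stood in the promoter of 4 of the 31 genes (12.9%), Ampd3, Atic, Impdh2 and Paics, and in 8.09% of the 27025 genes of the table. The GAS motif stood in 3 (9.68%), Adsl, Paics and Shmt2, against 9.55% of all genes. A match is a description of these letters and not of a bound site. 4 promoters are printed, 5′ to 3′ on the strand of the gene, with the motifs in capitals. Ppat and Paics, which catalyse the first and a middle step of purine synthesis, are read in opposite directions from starts 276 bases apart, so that their first bases overlap head to head, and are shown for that arrangement. The printed windows of these neighbours share no base, and reads from the overlap could be counted for either gene or left out. In Paics the E-box begins 203 bases and the GAS motif 64 bases before the start, and the Ppat window holds neither. Impdh2 and Shmt2, called in 7 and 5 of the 20 comparisons of WT with AAB or BBA described below, are shown as often called genes that hold a motif. Cad and Mthfd1, called in 6 each, and Gart, called in 5, held neither and are not printed. The motifs of Impdh2 and Shmt2 begin 110 bases (E-box, Impdh2) and 55 bases (GAS motif, Shmt2) before the start.
Ppat, chr5:76951529-76951828, minus strand: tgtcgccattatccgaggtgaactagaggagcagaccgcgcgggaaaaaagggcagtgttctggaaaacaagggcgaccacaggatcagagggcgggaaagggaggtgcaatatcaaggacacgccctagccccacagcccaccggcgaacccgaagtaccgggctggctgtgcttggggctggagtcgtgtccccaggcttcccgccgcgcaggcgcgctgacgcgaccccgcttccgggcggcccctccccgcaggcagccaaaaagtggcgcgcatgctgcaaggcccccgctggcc
Paics, chr5:76951052-76951351, plus strand: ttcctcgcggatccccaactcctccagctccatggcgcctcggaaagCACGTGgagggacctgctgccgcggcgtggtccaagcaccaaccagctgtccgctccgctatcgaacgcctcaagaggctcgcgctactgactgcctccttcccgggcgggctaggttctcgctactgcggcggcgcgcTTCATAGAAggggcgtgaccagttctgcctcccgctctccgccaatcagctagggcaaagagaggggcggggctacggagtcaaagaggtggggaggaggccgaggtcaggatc
Impdh2, chr9:108560186-108560485, plus strand: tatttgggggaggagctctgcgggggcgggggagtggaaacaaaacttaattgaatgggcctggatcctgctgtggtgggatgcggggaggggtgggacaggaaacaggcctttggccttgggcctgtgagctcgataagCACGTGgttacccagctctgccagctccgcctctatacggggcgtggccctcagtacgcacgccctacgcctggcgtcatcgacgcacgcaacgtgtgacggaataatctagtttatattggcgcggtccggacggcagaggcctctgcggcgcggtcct
Shmt2, chr10:127522395-127522694, minus strand: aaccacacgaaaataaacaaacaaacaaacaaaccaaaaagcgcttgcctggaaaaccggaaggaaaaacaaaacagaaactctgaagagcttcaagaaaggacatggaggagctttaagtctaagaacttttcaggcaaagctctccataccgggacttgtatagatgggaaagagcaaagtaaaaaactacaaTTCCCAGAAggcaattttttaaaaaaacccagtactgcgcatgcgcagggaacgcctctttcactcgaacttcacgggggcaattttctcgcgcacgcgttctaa

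Before any comparison the levels of the genes were set side by side per kilobase of merged exons (GENCODE vM21, GRCm38), in WT Tcm without cytokine. Nme2, a nucleoside diphosphate kinase that shares sequence and a locus with Nme1, had the highest value at 338 ± 85.3 CPM per kilobase (SD, n = 2). Its counts are uncertain to the extent that reads were divided between the paralogs. Hprt, the salvage enzyme for hypoxanthine and guanine, was second at 75.02 ± 20.7, followed by Impdh2, the first step towards GMP, at 57.1 ± 5.64, Aprt, the adenine salvage enzyme, at 52.3 ± 7.84 and Shmt2 at 48.9 ± 1.45. Both libraries put Nme2 above Hprt, whereas from Hprt to Shmt2 the ranges of neighbours in this order overlapped. At the low end were Shmt1 at 4.89 ± 1.42, Dhodh at 4.41 ± 0.00685 and Ampd3, an AMP deaminase, at 3.47 ± 0.0745 CPM per kilobase (SD, n = 2). The ranges of Shmt1 and Dhodh overlapped, and Ampd3 lay below Dhodh in both libraries.

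The mean of log2(CPM + 1) over the 33 genes gives 1 value a library. Without cytokine, WT Tnv averaged 6.11 ± 0.04 (SD, n = 2), WT Tcm 6.22 ± 0.14 (SD, n = 2) and WT Tem 6.004 ± 0.01 (SD, n = 2). AAB and BBA means without cytokine were, in that order, 6.08 and 5.98 for Tnv, 6.18 and 6.02 for Tcm, and 5.94 and 5.84 for Tem. With IL-15, WT Tcm averaged 6.54 ± 0.09 (SD, n = 2), AAB Tcm 6.06 ± 0.04 (SD, n = 2) and BBA Tcm 5.54 ± 0.03 (SD, n = 2), and the 3 genotypes did not overlap. WT Tnv with IL-15 averaged 5.98 ± 0.13 (SD, n = 2), AAB Tnv 5.55 ± 0.02 (SD, n = 2) and BBA Tnv 5.39 ± 0.07 (SD, n = 2). WT Tem with IL-15 averaged 5.91 ± 0.12 (SD, n = 2), AAB Tem 5.62 ± 0.08 (SD, n = 2) and BBA Tem 5.32 ± 0.04 (SD, n = 2). With IL-7 the means of WT, AAB and BBA were 6.44, 6.07 and 5.73 in Tcm, 6.13, 6.09 and 5.76 in Tnv and 5.68, 5.64 and 5.44 in CD4+ cells. The BBA libraries were the lowest in each of these states with either cytokine. No p is given for this mean.

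**Figure D1:**
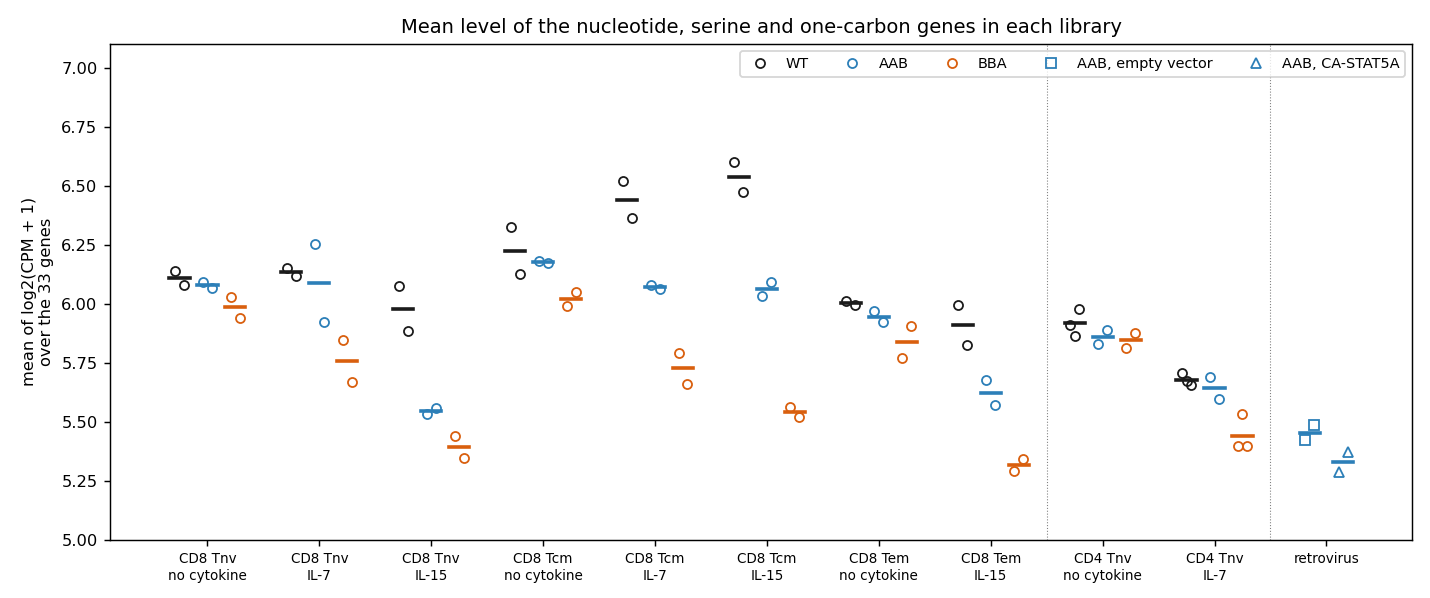
Mean of log2(CPM + 1) over the 33 genes (vertical axis) in each assigned library, by cell state and culture (horizontal axis). Open symbols are libraries and bars are group means. With IL-15 the group means run from 6.54 in WT Tcm to 5.54 in BBA Tcm. Scaling factors were set within each table, so the CD8+, CD4+ and retroviral sets are not on 1 scale.

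Cells without cytokine show whether the genotypes differ before a cytokine is added. Each condition was fitted by itself with edgeR, and a call needed a difference above 1.5-fold together with a p under 0.05 after Benjamini-Hochberg adjustment over all genes of the fit. Positive log2 fold changes mean a higher level in WT. The comparisons of AAB and of BBA share their WT libraries. Of the 33 genes, 0 were called between WT and AAB in Tnv, Tcm, Tem and CD4+ cells, where 0.164%, 0.0390%, 0.0198% and 0.355% of all genes tested were called. At an unadjusted p under 0.05 there were 4, 0, 1 and 1 of them. Of all genes, 765 of 9750, 394 of 10265, 807 of 10082 and 809 of 10154 were at that limit. Between WT and BBA, 0 were called in Tcm, Tem and CD4+ cells (0.283%, 0.208% and 1.13% of all genes). At an unadjusted p under 0.05 were 5, 3 and 1 of the 33. Of all genes, 999 of 10265, 1083 of 10082 and 996 of 10154 were at that limit. In these 3 comparisons 29, 27 and 23 of the 33 values lay above 0. Their median log2 fold changes were 0.15, 0.15 and 0.08 over the 33 genes and −0.0076, 0.0009 and 0.0032 over all genes. DESeq2 called 0 in each of these 7 comparisons as well. In Tnv, 26 of the 33 values of WT over BBA lay above 0, with a median of 0.08 against 0.0011 over all genes. At an unadjusted p under 0.05 were 11 of the 33 and 2211 of all 9750 genes. There 1 gene was called as higher in WT than in BBA, against 1.48% of all genes. It was Ampd3, at 20.9 and 20.8 CPM in WT, 15.4 and 14.4 in AAB and 11.6 and 8.48 in BBA (log2 fold change 1.07, SE 0.17, edgeR adjusted p = 0.0208). Ampd3 turns AMP into IMP, and its levels in AAB lay between those of the other genotypes. It was not called without either WT library or without replicate 2 of BBA. Between the states of WT cells, 0 of the 33 genes were called for Tcm over Tnv and 0 for Tem over Tcm, against 3.40% and 2.26% of all genes. DESeq2 also called 0. At an unadjusted p under 0.05 were 5 and 9 of the 33, and 1635 and 1555 of all 10412 genes. Without replicate 2 of WT Tcm, 1 and 2 were called, and without replicate 2 of WT Tem 1 for Tem over Tcm. The median log2 fold change of Tem over Tcm was −0.21 over the 33 genes and −0.0099 over all genes, and 30 of the 33 values were below 0.

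Among the 20 comparisons of WT with AAB or BBA, most calls were in Tcm cells cultured with IL-15, a cytokine that signals through STAT5 and maintains memory CD8+ T cells. Of the 33 genes, 24 were higher in WT than in BBA, against 12.3% of all genes tested. 1 gene, Ampd3, was lower, and together these 25 calls stand against 23.5% of all genes in either direction. The median log2 fold change was 1.01 over the 33 genes and −0.0031 over all genes. Both WT libraries lay above both BBA libraries for 30 of the 33 genes and for 38.0% of all genes. The BBA mean was 24.3% to 149% of the WT mean, with a median of 48.7%. The count of calls was 23 to 26 when any 1 WT or BBA library was left out.

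**Figure D2:**
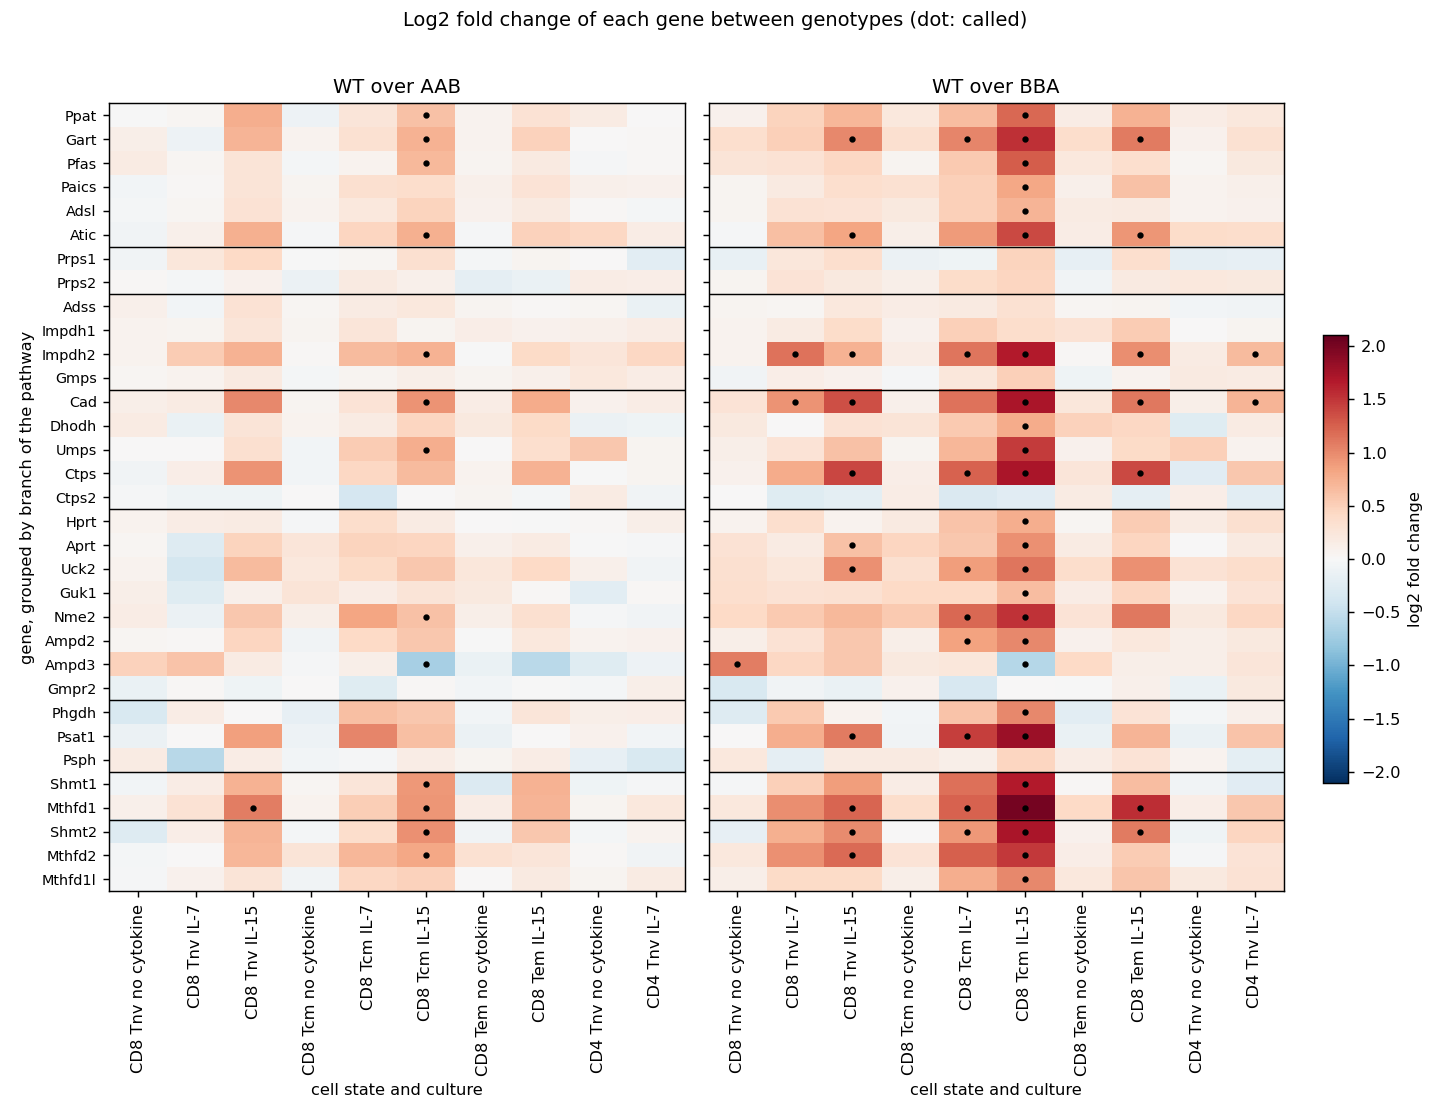
Log2 fold change of WT over AAB (left) and of WT over BBA (right) for each of the 33 genes (rows, grouped by branch) in each cell state and culture (columns). Red means higher in WT, blue lower, and a dot marks a called gene. Dots fill the BBA column of Tcm with IL-15 (25 genes) and are nearly absent without cytokine (1 gene).

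One-carbon genes were among those with the largest fold changes. Mthfd1 (chr12:76255298-76319803 of GRCm38, plus strand), the trifunctional cytosolic folate enzyme that supplies formyl groups to purine synthesis, was at 144 and 128 CPM in WT, 66.5 and 74.6 in AAB and 31.5 and 34.8 in BBA (log2 fold change 2.01, SE 0.11, edgeR adjusted p = 0.000102 for WT over BBA). Its 3 genotypes did not overlap, and the WT level was 4.02-fold that of BBA in the fit. Shmt1, the cytosolic serine hydroxymethyltransferase, was at 33.1 and 24.7 CPM in WT, 15.98 and 14.6 in AAB and 10.5 and 7.49 in BBA (log2 fold change 1.67, SE 0.22, edgeR adjusted p = 0.00155). Shmt2 (chr10:127517123-127522444, minus strand), its mitochondrial counterpart, was at 247 and 258 CPM in WT, 119 and 137 in AAB and 70.8 and 80.4 in BBA (log2 fold change 1.71, SE 0.11, edgeR adjusted p = 0.000125). In both, WT was highest and BBA lowest in every library. The mitochondrial dehydrogenase Mthfd2 was at 46.6 and 38.2 CPM in WT, 22.95 and 25.1 in AAB and 16.3 and 13.5 in BBA (log2 fold change 1.49, SE 0.16, edgeR adjusted p = 0.00072). Mthfd1l, which makes formate in mitochondria, was also higher in WT (log2 fold change 1.01), so that 5 of 5 one-carbon genes were called.

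Serine synthesis was divided. Psat1, the transaminase of the pathway, was at 67.9 and 58.2 CPM in WT, 35.5 and 45.3 in AAB and 19.995 and 15.7 in BBA (log2 fold change 1.80, SE 0.17, edgeR adjusted p = 0.00059), the second largest fold change of the 33 genes. Phgdh, which catalyses the first step, was at 142 and 142 CPM in WT, 82.99 and 108 in AAB and 65.7 and 72.9 in BBA (log2 fold change 1.01) and was called. Psph, the phosphatase of the last step, was not called (log2 fold change 0.45, edgeR adjusted p = 0.0472), as its difference was under 1.5-fold.

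All 6 genes of purine ring assembly were higher in WT than in BBA, with log2 fold changes from 0.71 to 1.53. Gart (chr16:91621186-91646952, minus strand), which carries several steps of the pathway on 1 protein, was at 249 and 233 CPM in WT, 138 and 151 in AAB and 78.7 and 85.2 in BBA (log2 fold change 1.53, SE 0.10, edgeR adjusted p = 0.000125). Atic, which completes IMP, was at 208 and 199.8 CPM in WT, 115 and 127 in AAB and 73.7 and 78.5 in BBA (log2 fold change 1.39), and Ppat, the committing amidotransferase, at 101 and 82.3 CPM in WT, 57.03 and 61.5 in AAB and 41.3 and 37.1 in BBA (1.20). Paics, which overlaps it head to head, had a log2 fold change of 0.81, Pfas 1.26 and Adsl 0.71. The 2 PRPP synthetases upstream were not called, with 0.47 for Prps1 and 0.45 for Prps2. Downstream of IMP, 1 of 4 genes was called. Impdh2 (chr9:108560286-108565584, plus strand), the inducible IMP dehydrogenase, was at 241 and 224 CPM in WT, 136 and 141 in AAB and 70.9 and 72.4 in BBA (log2 fold change 1.67, SE 0.09, edgeR adjusted p = 9.44e-05), with no overlap between any of the genotypes. Its isozyme Impdh1 was at 173 and 199 CPM in WT, 169 and 185 in AAB and 131 and 149 in BBA (log2 fold change 0.38, not called). Reads on Impdh2 outnumbered those on Impdh1 in both WT libraries, at 1.40 and 1.13 reads per read on Impdh1. They were fewer in both BBA libraries, at 0.540 and 0.486. Gmps, the last step to GMP, and Adss, which leads to AMP, had values of 0.51 and 0.32 and were not called.

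In pyrimidine synthesis 4 of 5 genes were called. Cad (chr5:31054780-31078479, plus strand), the protein that carries out the first steps, was at 352 and 374 CPM in WT, 163 and 209 in AAB and 102 and 116 in BBA (log2 fold change 1.71, SE 0.13, edgeR adjusted p = 0.000263). Ctps, which makes CTP, was at 52.1 and 36.8 CPM in WT, 29.03 and 26.5 in AAB and 13.4 and 13.3 in BBA (log2 fold change 1.71, SE 0.19, edgeR adjusted p = 0.000805). WT lay above AAB and AAB above BBA in every library of both genes. Umps was at 68.3 and 57.5 CPM in WT, 32.99 and 40.8 in AAB and 23.7 and 20.9 in BBA (log2 fold change 1.47) and Dhodh, the mitochondrial step, had a log2 fold change of 0.78. The second CTP synthase, Ctps2, went the other way without being called, at 85.1 and 87.8 CPM in WT, 87.5 and 83.1 in AAB and 97.5 and 103 in BBA (log2 fold change −0.24, edgeR adjusted p = 0.0523). Whether Ctps and Ctps2, or Impdh2 and Impdh1, differ in their response was not tested.

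Among the 8 genes of salvage and interconversion, 6 were higher in WT. Nme2 was at 483 and 386 CPM in WT, 305 and 256 in AAB and 149.7 and 150.0 in BBA (log2 fold change 1.51). Uck2, the uridine kinase, had 1.12, Ampd2, the AMP deaminase of most tissues, 1.01, Aprt 0.96, Hprt 0.76 and Guk1, the guanylate kinase, 0.64. Ampd3 was lower in WT, at 9.87 and 9.16 CPM in WT, 15.02 and 15.6 in AAB and 15.5 and 12.8 in BBA (log2 fold change −0.60, SE 0.17, edgeR adjusted p = 0.028), just past the 1.5-fold limit and with the AAB and BBA libraries overlapping. Gmpr2, which returns GMP to IMP, had a log2 fold change of 0.01 (edgeR adjusted p = 0.974).

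**Figure D3:**
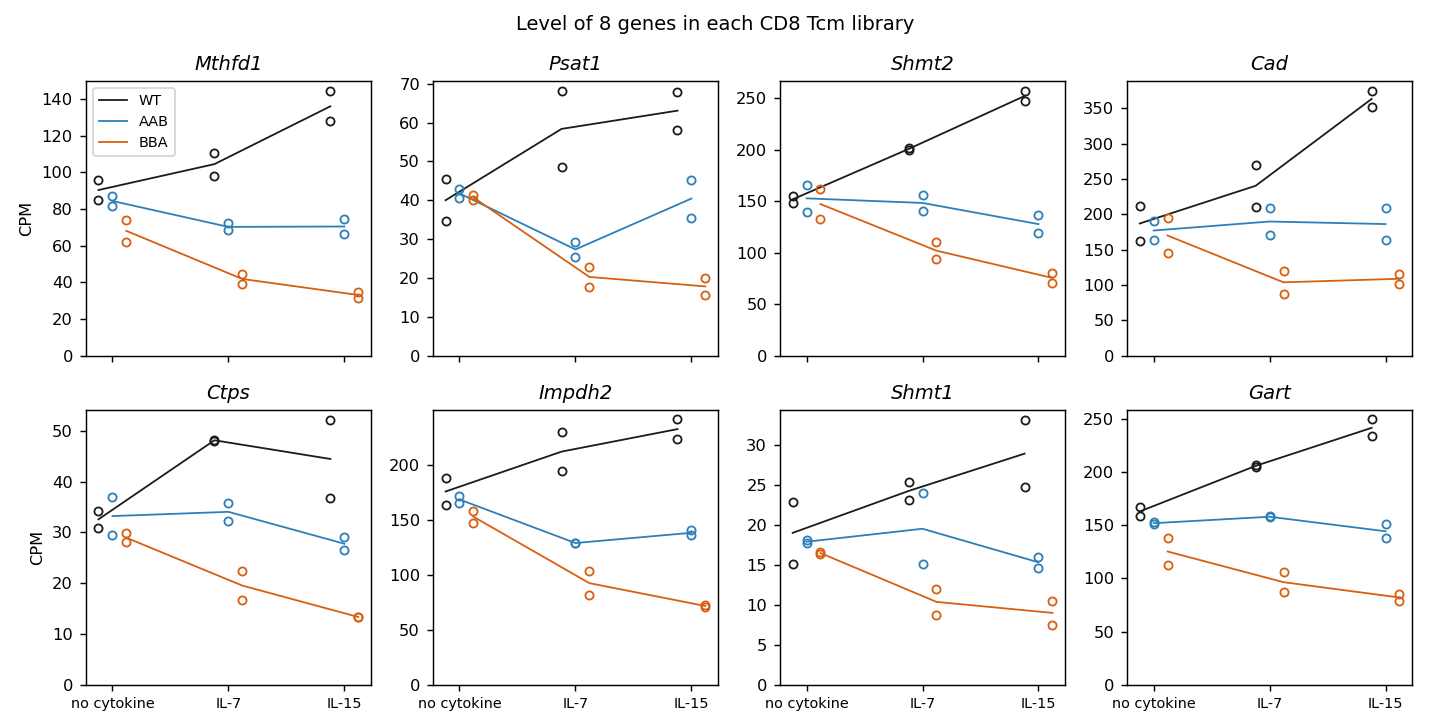
CPM (vertical axis, from 0) of the 8 called genes with the largest log2 fold change of WT over BBA, in the Tcm libraries of the 3 conditions (horizontal axis). Circles are libraries and lines join the genotype means. For Mthfd1 the BBA libraries fall to 31.5 and 34.8 CPM with IL-15 while the WT libraries reach 144 and 128.

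In Tcm with IL-15, AAB lay between WT and BBA for most of the 33 genes. The group means there followed the order WT, AAB, BBA in 30 of 33 genes. Without cytokine this order held for 20 of 33 in Tcm, 20 in Tem, 14 in Tnv and 9 in CD4+ cells. How many of all genes follow it was not counted. Against WT, 12 genes were lower in AAB (2.80% of all genes) and Ampd3 was higher, 13 calls against 4.45% of all genes in either direction. The median log2 fold change was 0.56 over the 33 genes and 0.011 over all genes. The 12 were Shmt2 (log2 fold change 0.97, SE 0.10, edgeR adjusted p = 0.00458), Cad (0.95), Mthfd1 (0.93), Shmt1 (0.90), Mthfd2 (0.81), Umps (0.76), Atic (0.74), Impdh2 (0.74), Gart (0.73), Pfas (0.67), Nme2 (0.62) and Ppat (0.62), with log2 fold changes in parentheses. None of the serine genes was called, with 0.63 for Psat1 and 0.56 for Phgdh. The count was 3 without replicate 1 of WT, 1 without replicate 1 of AAB and 10 without either of the other libraries. AAB was in turn higher than BBA in 12 genes, against 3.12% of all genes. Psat1 (log2 fold change 1.17, SE 0.17, edgeR adjusted p = 0.0147) and Mthfd1 (log2 fold change 1.07, SE 0.11, edgeR adjusted p = 0.00517) led these, followed by Ctps (1.04), Impdh2 (0.93) and Nme2 (0.89). The count was 10 without replicate 1 of AAB, 4 without its replicate 2, and 6 and 4 without replicates 1 and 2 of BBA.

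Markers of the cell cycle, of cell state and of other cells moved with these values in Tcm with IL-15. The summed level of 9 proliferation markers was 815 to 936 CPM in WT, 516 to 721 in AAB and 305 to 362 in BBA, and of the 7 tested Pcna, Mcm2 and Mcm5 were higher in WT than in BBA. The 5 myeloid markers summed to 10.3 to 12.9 CPM in WT, 13.4 to 28.6 in AAB and 31.6 to 57.4 in BBA, and both that were tested, Lyz2 and Csf1r, were higher in BBA. The 5 B cell markers summed to 88.5 to 163 CPM in WT, 66.6 to 182 in AAB and 183 to 382 in BBA, with 0 of 4 called. The 5 T cell markers, at 2036 to 2130.1 CPM in WT and 2023 to 2066 in BBA, overlapped, with 0 of 4 called and no marker of these lists at 0 in any group of Tcm with IL-15. The 4 NK cell markers summed to 43.98 to 52.4 CPM in WT, 44.4 to 63.9 in AAB and 76.9 to 81.8 in BBA, and the 1 tested, Klrd1, was higher in BBA. The 6 memory and effector markers summed to 1679 to 1744 CPM in WT, 1413 to 1469 in AAB and 847 to 1025 in BBA, and Il2rb, Tbx21 and Gzmb were higher in WT than in BBA. The 4 naive cell markers summed to 2569 to 2741 CPM in WT, 3047 to 3059 in AAB and 3643 to 3904 in BBA, and Tcf7 and Lef1 were higher in BBA. Cd8a and Cd8b1 together were at 2462 to 2785 CPM in WT, 2644 to 2949 in AAB and 2021 to 2160.2 in BBA, and neither was called. The part of these markers in the result was not tested.

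Within a genotype, IL-15 cultures were compared with cells without cytokine to describe how each genotype moved. The counts for the AAB and BBA responses, here and below, come from the reported fits alone. They were not refitted under an alternative or with a library left out. In WT Tcm 6 of the 33 genes rose, against 2.20% of all genes, and 0 fell. They were Pfas (log2 fold change 1.09), Cad (0.98), Shmt2 (0.76), Ppat (0.66), Mthfd1 (0.62) and Gart (0.59). In BBA Tcm 12 fell, against 2.44% of all genes, and 0 rose. The largest falls were of Psat1 (log2 fold change −1.18, SE 0.20, edgeR adjusted p = 0.00616), Ctps (−1.11), Impdh2 (−1.08), Mthfd1 (−1.03), Mthfd2 (−0.99), Atic (−0.98) and Shmt2 (−0.95). In AAB Tcm 0 were called (0.896% of all genes), with 4 of the 33 and 1481 of all 10606 genes at an unadjusted p under 0.05. For Mthfd1 the libraries without cytokine were at 95.7 and 85.1 CPM in WT, 81.7 and 87.2 in AAB and 61.96 and 74.3 in BBA. Its level with IL-15, given above, was higher than these in WT and lower in BBA. For Impdh2 they were at 188 and 163 CPM in WT, 171 and 166 in AAB and 147 and 158 in BBA, lower than with IL-15 in WT and higher in BBA. Psat1 was at 45.4 and 34.6 CPM in WT, 40.7 and 42.9 in AAB and 41.4 and 40.1 in BBA, Ctps at 34.2 and 30.9 CPM in WT, 36.9 and 29.5 in AAB and 29.8 and 28.1 in BBA and Shmt2 at 149 and 155 CPM in WT, 139.5 and 166 in AAB and 133 and 162 in BBA without cytokine. The genotypes overlapped in Psat1 and Shmt2, and WT and BBA did not in Ctps. Gart was at 167 and 158 CPM in WT, 153 and 151 in AAB and 113 and 138 in BBA, Cad at 162 and 212 CPM in WT, 164 and 190.5 in AAB and 146 and 194 in BBA and Pfas at 41.2 and 51.5 CPM in WT, 42.8 and 51.6 in AAB and 38.5 and 49.1 in BBA. Pfas, which adds an amide nitrogen to the growing purine, reached 97.2 and 97.6 CPM in WT with IL-15 and stood at 38.1 and 41.4 in BBA. For Mthfd2 and Atic the BBA libraries without cytokine were at 33.5 and 26.04 and at 138 and 164 CPM, all above the BBA libraries with IL-15. When WT libraries without cytokine were left out in turn, the 6 calls in WT became 2 (replicate 1) and 1 (replicate 2). Leaving out the WT libraries with IL-15 gave 0 (replicate 1) and 2 (replicate 2), and a fit of WT libraries alone gave 0.

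The difference between the responses was tested as an interaction. The IL-15 response in WT exceeded that in BBA for 17 of the 33 genes in Tcm, against 3.55% of all genes, and the reverse held for 0. The median difference in log2 fold change was 0.89 over the 33 genes and −0.0013 over all genes. It was largest for Psat1 (1.87, SE 0.28, edgeR adjusted p = 0.00304), Shmt2 (1.71, SE 0.19, edgeR adjusted p = 0.000992) and Mthfd1 (1.65, SE 0.17, edgeR adjusted p = 0.000992). Of the 17 genes, 6 had risen in WT and 10 had fallen in BBA, and 4 were called in neither genotype alone. The count was 9 to 13 when 1 library was left out, and it was 9 without replicate 1 of WT with IL-15, replicate 2 of BBA without cytokine or either BBA library with IL-15. It was 11 without replicate 1 of BBA without cytokine or either WT library without cytokine. The response in WT minus that in AAB was called for 0 genes (0% of all genes). At an unadjusted p under 0.05 were 17 of the 33 and 630 of all 10606 genes.

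The responses of Tnv and Tem to IL-15 were described in the same way and not tested against that of Tcm. In WT Tnv and WT Tem, 0 of the 33 genes were called between IL-15 and no cytokine, against 5.72% and 1.73% of all genes. At an unadjusted p under 0.05 were 6 and 4 of the 33. Of all genes, 2436 of 10480 and 1605 of 10351 were at that limit. DESeq2 called 0 and 2 of the 33, and 2 were called in Tem with the replicate number as a block. Without replicate 1 of WT Tnv with IL-15 there were 2 calls in Tnv. In BBA, 15 genes fell in Tnv and 12 in Tem, against 6.50% and 4.14% of all genes. In AAB, 14 fell in Tnv and 4 in Tem, against 5.25% and 1.18% of all genes. In Tnv, 13 of the 33 genes fell in both genotypes, and so did 4.32% of all genes. The 2 genotypes have no libraries in common, but their responses come from 1 fit. Same-numbered AAB and BBA libraries deviated together, with correlations of 0.260 without cytokine and 0.253 with IL-15. Mthfd2 fell by 1.57 in BBA and 1.29 in AAB on the log2 scale, and Shmt2 fell by 1.36 and 1.16. Without cytokine Mthfd2 was at 38.8 and 33.9 CPM in WT, 38.2 and 36.3 in AAB and 37.1 and 25.8 in BBA. With IL-15 it was at 21.1 and 27.3 CPM in WT, 15.4 and 14.5 in AAB and 12.6 and 8.16 in BBA, so that the WT libraries also lay below those without cytokine. Ctps in Tnv was at 28.2 and 24.9 CPM in WT, 27.9 and 27.8 in AAB and 24.1 and 25.6 in BBA without cytokine and Mthfd1 at 77.95 and 80.96 CPM in WT, 71.6 and 74.7 in AAB and 70.1 and 66.4 in BBA. Their levels with IL-15, given below, were lower in all AAB and BBA libraries. Shmt2 was at 145 and 149 CPM in WT, 173 and 179.8 in AAB and 159.7 and 172 in BBA, Atic at 160.2 and 158 CPM in WT, 156 and 177 in AAB and 167 and 155 in BBA and Psat1 at 33.5 and 29.5 CPM in WT, 33.03 and 35.4 in AAB and 33.7 and 29.2 in BBA without cytokine. In BBA Tem, Ctps fell by 1.35 on the log2 scale, from 20.7 and 26.9 to 9.04 and 9.34 CPM, Psat1 by 1.25, from 40.8 and 40.8 to 14.6 and 19.3, and Mthfd1 by 1.25, from 43.5 and 56.9 to 21.4 and 20.4. The 4 genes that fell in AAB Tem were Ctps, Mthfd1, Umps and Atic, all of which fell in BBA Tem as well. The 9 genes that fell in BBA in all 3 states, against 1.56% of all genes, were Atic, Ctps, Impdh2, Mthfd1, Mthfd1l, Mthfd2, Psat1, Shmt2 and Umps. As an interaction with WT, the difference was called in Tnv for Ctps (1.33) and Shmt2 (1.18), against 0.582% of all genes. Leaving out 1 library gave 0 to 3 calls there, with 0 without replicate 1 of WT with IL-15 or any 1 of the WT and BBA libraries without cytokine and 1 without replicate 1 of BBA with IL-15. In Tem the difference was called for 0 (0.00966% of all genes), for 5 by DESeq2 and for 3 with the replicate block. At an unadjusted p under 0.05 were 14 of the 33 and 832 of all 10351 genes. Against AAB the difference was called for 0 in Tnv (0.0286% of all genes) and 0 in Tem (0%). There 11 and 8 of the 33 were at an unadjusted p under 0.05, as were 787 of all 10480 and 361 of all 10351 genes.

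**Figure D4:**
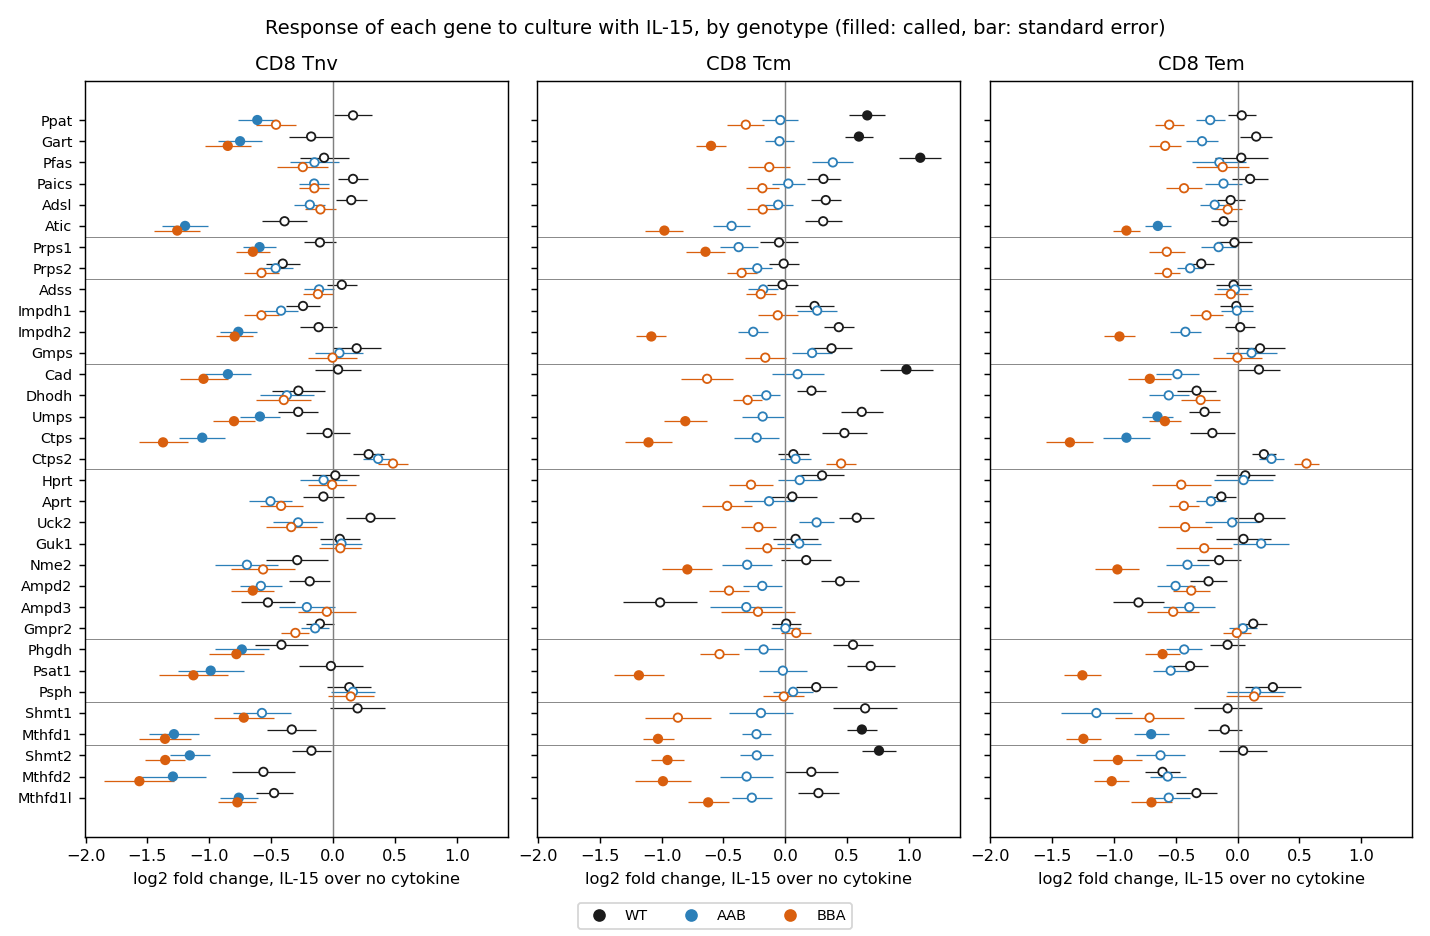
Log2 fold change of IL-15 cultures over cells without cytokine (horizontal axis) for each of the 33 genes (vertical axis, grouped by branch) in Tnv, Tcm and Tem. Points are fitted values for WT, AAB and BBA, bars are standard errors and filled points are called genes. In Tcm the filled WT points (6) lie right of 0 and the filled BBA points (12) left of it, and in Tnv the AAB (14) and BBA (15) points lie left of 0.

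With IL-15 in Tnv, 11 of the 33 genes were higher in WT than in BBA and 0 lower, against 2.53% of all genes in that direction. The median log2 fold change was 0.57 over the 33 genes and 0.01 over all genes. Ctps was at 29.01 and 21.9 CPM in WT, 14.8 and 11.4 in AAB and 10.9 and 7.92 in BBA (log2 fold change 1.40, SE 0.27, edgeR adjusted p = 0.0182). Cad was at 204 and 171 CPM in WT, 82.3 and 103 in AAB and 58.998 and 84.6 in BBA (log2 fold change 1.35, SE 0.20, edgeR adjusted p = 0.00741). Mthfd1 was at 67.7 and 56.9 CPM in WT, 27.04 and 31.9 in AAB and 28.9 and 23.2 in BBA (log2 fold change 1.22, SE 0.18, edgeR adjusted p = 0.00759). In each of these genes both WT libraries stood above all others, and AAB overlapped BBA in Cad and Mthfd1. Psat1 was at 32.01 and 29.5 CPM in WT, 16.05 and 17.8 in AAB and 15.5 and 12.6 in BBA (log2 fold change 1.10), Gart at 149 and 127 CPM in WT, 79.7 and 88.8 in AAB and 66.8 and 66.6 in BBA (1.02) and Shmt2 at 139 and 118 CPM in WT, 69.7 and 85.6 in AAB and 58.6 and 68.2 in BBA (0.99). These 3 kept the order WT, AAB, BBA in every library, although AAB and BBA lay near each other. Uck2 was at 69.7 and 63.6 CPM in WT, 32.9 and 50.8 in AAB and 29.2 and 37.8 in BBA (0.96), with AAB and BBA overlapping. Mthfd2 (1.20), Atic (0.83), Impdh2 (0.73) and Aprt (0.62) made up the rest, with log2 fold changes in parentheses. The count was 9 without the WT library of high Cd4, 8 without replicate 1 of BBA, and 6 without replicate 1 of WT or replicate 2 of BBA. Between WT and AAB, Mthfd1 alone was called (log2 fold change 1.07, SE 0.18, edgeR adjusted p = 0.0481), against 0.389% of all genes. With the replicate number as a block 9 genes were called there, and 0 when any 1 library was left out. AAB and BBA differed in 0 genes (0.0699% of all genes), and in 0 by DESeq2. At an unadjusted p under 0.05 were 1 of the 33 and 682 of all 10021 genes. The proliferation markers summed to 334 to 368 CPM in WT and 294 to 342 in BBA, with Birc5 of 7 tested higher in BBA. The myeloid markers summed to 8.56 to 13.6 CPM in WT and 40.9 to 87.7 in BBA, with Csf1r of 3 tested higher in BBA. The naive cell markers summed to 3852 to 3901 CPM in WT and 4213 to 4356 in BBA (0 of 4 called) and the NK cell markers to 34.9 to 55.4 CPM in WT and 61.2 to 93.9 in BBA (0 of 1), both without overlap. The memory and effector markers overlapped at 289 to 405 CPM in WT and 325 to 422 in BBA, with Eomes of 3 tested higher in BBA. Their part in the result was not tested.

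With IL-15 in Tem, 7 genes were higher in WT than in BBA and 0 lower, against 1.22% of all genes. The median log2 fold change was 0.53 over the 33 genes and −0.022 over all genes. Mthfd1 was at 68.6 and 56.9 CPM in WT, 37.1 and 36.9 in AAB and 21.4 and 20.4 in BBA (log2 fold change 1.55, SE 0.13, edgeR adjusted p = 0.0179). Ctps was at 26.99 and 22.2 CPM in WT, 14.3 and 14.6 in AAB and 9.04 and 9.34 in BBA (log2 fold change 1.38, SE 0.20, edgeR adjusted p = 0.0424), and Gart at 134 and 121 CPM in WT, 87.5 and 90.6 in AAB and 58.7 and 58.5 in BBA (log2 fold change 1.08, SE 0.09, edgeR adjusted p = 0.0179). The order WT, AAB, BBA held in every library of these genes. Cad was at 189.7 and 168 CPM in WT, 90.7 and 111 in AAB and 78.5 and 83.7 in BBA (log2 fold change 1.10) and Shmt2 at 134 and 119 CPM in WT, 80.5 and 85.03 in AAB and 58.3 and 57.3 in BBA (1.09). Impdh2 was at 128 and 114 CPM in WT, 91.2 and 87.8 in AAB and 55.1 and 64.9 in BBA (0.98) and Atic at 121 and 108 CPM in WT, 81.6 and 78.1 in AAB and 60.6 and 57.2 in BBA (0.92). These 4 kept the same order of genotypes in every library. With the replicate number as a block 12 genes were called. Without any 1 of the 4 WT and BBA libraries 0 were called, and filterByExpr in place of the Jaccard filter also gave 0. Between WT and AAB 0 were called (0.0199% of all genes), 2 by DESeq2 and 2 with the block. At an unadjusted p under 0.05 were 8 of the 33 and 742 of all 10034 genes. Proliferation markers summed to 503 to 511 CPM in WT and 382 to 504 in BBA, with 0 of 8 called. Cd8a and Cd8b1 summed to 2053 to 2715 CPM in WT and 1544 to 1928 in BBA and the NK cell markers to 64.05 to 67.6 CPM in WT and 49.6 to 54.6 in BBA, without overlap and with 0 of 2 and 0 of 1 called, and the part of these markers in the result was not tested.

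IL-7, which maintains naive and memory T cells and also signals through STAT5, was used in Tcm as well. Of the 33 genes, 9 were higher in WT than in BBA and 0 lower, against 1.42% of all genes, with a median log2 fold change of 0.60 over the 33 genes and −0.0003 over all genes. Psat1 was at 68.1 and 48.7 CPM in WT, 25.4 and 29.3 in AAB and 22.9 and 17.6 in BBA (log2 fold change 1.45, SE 0.22, edgeR adjusted p = 0.0324). Mthfd1 was at 111 and 98.3 CPM in WT, 72.2 and 68.4 in AAB and 44.7 and 39.1 in BBA (log2 fold change 1.25, SE 0.15, edgeR adjusted p = 0.0189), and Impdh2 at 229.8 and 194 CPM in WT, 129 and 129 in AAB and 103 and 81.5 in BBA (log2 fold change 1.12, SE 0.17, edgeR adjusted p = 0.0298). WT stood above AAB and AAB above BBA in every library of these genes. Ctps was at 48.3 and 48.001 CPM in WT, 35.8 and 32.3 in AAB and 22.4 and 16.6 in BBA (log2 fold change 1.23), Nme2 at 638 and 395 CPM in WT, 267 and 287 in AAB and 219 and 207 in BBA (1.20) and Gart at 205 and 206 CPM in WT, 158 and 157 in AAB and 106 and 86.8 in BBA (1.02). The 2 WT libraries of Nme2 lay far apart, both above the other genotypes. Shmt2 (0.90), Uck2 (0.87) and Ampd2 (0.85) were also called. Both WT libraries were male here. With a sex term 0 genes were called, and 0 without either BBA library, while 18 were called without replicate 2 of WT. The B cell markers summed to 17.9 to 38.9 CPM in WT and 144 to 242 in BBA, with Cd79a called as higher in BBA. The memory and effector markers summed to 2152 to 2717 CPM in WT and 756 to 947 in BBA (Il2rb of 6 tested higher in WT), the naive cell markers to 2946 to 3098 CPM in WT and 3714 to 3827 in BBA (Lef1 of 4 higher in BBA), the proliferation markers to 558 to 860.0 CPM in WT and 376 to 406 in BBA (0 of 9 called) and Cd8a and Cd8b1 to 2634 to 2789 CPM in WT and 1940.1 to 2118 in BBA (0 of 2). These groups did not overlap, and the part of the markers in the result was not tested. Between WT and AAB 0 were called (0.0589% of all genes), with 13 at an unadjusted p under 0.05, 3 by DESeq2, and 7 without replicate 2 of WT. Of all genes, 1155 of 10185 were at an unadjusted p under 0.05 between WT and AAB. The 5 genes higher in WT than in BBA in Tcm with either cytokine and in Tnv and Tem with IL-15, against 0.325% of all genes, were Ctps, Gart, Impdh2, Mthfd1 and Shmt2. These are the steps at CTP, the purine ring, GMP and both compartments of one-carbon metabolism. Another 8 were called in none of the 20 comparisons of WT with AAB or BBA, namely Adss, Ctps2, Gmpr2, Gmps, Impdh1, Prps1, Prps2 and Psph.

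In Tnv with IL-7, 2 genes were higher in WT than in BBA, against 1.54% of all genes. They were Impdh2, at 189 and 191 CPM in WT, 153 and 109.8 in AAB and 88.98 and 86.4 in BBA (log2 fold change 1.13, SE 0.17, edgeR adjusted p = 0.0263), and Cad, at 223 and 210.3 CPM in WT, 218 and 167 in AAB and 126 and 103 in BBA (log2 fold change 0.95, SE 0.17, edgeR adjusted p = 0.0456). The BBA libraries were the lowest in both, and 1 AAB library reached the WT range for Cad. The naive cell markers summed to 3422 to 3586 CPM in WT and 4365 to 4416 in BBA, the T cell markers to 1567 to 1569 CPM in WT and 2009.8 to 2073 in BBA, Cd8a and Cd8b1 to 1878 to 1935 CPM in WT and 2195 to 2220.4 in BBA, the memory and effector markers to 251 to 270.4 CPM in WT and 369 to 433 in BBA, the NK cell markers to 44.99 to 58.8 CPM in WT and 69.4 to 92.2 in BBA, the B cell markers to 8.78 to 15.1 CPM in WT and 30.1 to 49.4 in BBA and the myeloid markers to 5.75 to 7.34 CPM in WT and 10.4 to 12.3 in BBA. BBA lay above WT in all of these sums, Eomes of the memory and effector list alone was called, and the part of the markers in the result was not tested. With the replicate number as a block 7 genes were called, and 0 when any 1 WT or BBA library was left out. Between WT and AAB 0 were called (0.256% of all genes), and 0 by DESeq2. At an unadjusted p under 0.05 were 2 of the 33 and 976 of all 10157 genes. The difference between WT and BBA was not called as unequal between the 2 cytokines for any gene (0 in either Tnv or Tcm), against 2.12% and 0.264% of all genes. At an unadjusted p under 0.05 there were 2 and 9 of the 33, and 1413 of all 10480 and 971 of all 10606 genes. DESeq2 called 0 and 2 of the 33. Without replicate 2 of WT Tcm with IL-7 there were 4 calls in Tcm.

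IL-7 cultures were also compared with cells without cytokine, and in CD8+ cells sex changes with the cytokine. In Tnv, WT gave 2 calls (18.7% of all genes), a rise of Shmt1 (log2 fold change 0.86, from 13.6 and 12.3 to 22.8 and 24.2 CPM) and a fall of Ampd3 (−0.73, from 20.9 and 20.8 to 13.6 and 11.5 CPM), and 0 when any 1 WT library was left out. AAB gave 2 (13.0% of all genes), a rise of Psph and a fall of Ampd3. BBA gave 7 (10.1% of all genes), a rise of Ctps2 and falls of Mthfd2 (−1.34, from 37.1 and 25.8 to 14.96 and 10.4 CPM), Phgdh (−0.95), Mthfd1, Shmt2, Atic and Impdh2. In Tcm, 0 were called in WT (3.17% of all genes) and 0 in AAB (4.21%), and DESeq2 called 0 in WT. At an unadjusted p under 0.05 were 11 and 7 of the 33, and 2052 and 2593 of all 10606 genes. Leaving out 1 WT library gave 1 without replicate 1 of the cells without cytokine and 2 and 1 without replicates 1 and 2 with IL-7. In BBA Tcm 5 fell (2.59% of all genes), namely Psat1 (−0.998), Mthfd2 (−0.86), Impdh2, Mthfd1 and Mthfd1l.

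Naive CD4+ cells were also compared between genotypes with IL-7. Here 2 genes were higher in WT than in BBA, against 2.62% of all genes, and the median log2 fold change was 0.21 over the 33 genes and −0.00071 over all genes. Impdh2 was at 120.4, 122 and 117 CPM in WT, 88.3 and 88.5 in AAB and 83.3, 71.3 and 70.9 in BBA (log2 fold change 0.67, SE 0.07, edgeR adjusted p = 0.000736). Cad was at 91.1, 84.1 and 72.1 CPM in WT, 77.3 and 70.4 in AAB and 43.7, 59.8 and 46.1 in BBA (log2 fold change 0.72, SE 0.13, edgeR adjusted p = 0.0101). In both, the WT and BBA libraries did not overlap. The B cell markers summed to 5.88 to 9.81 CPM in WT and 12.2 to 53.2 in BBA (Cd79a of 3 tested higher in BBA), the memory and effector markers to 45.3 to 50.997 CPM in WT and 64.8 to 98.96 in BBA (Ccl5 and Eomes of 5 higher in BBA), the NK cell markers to 1.84 to 2.53 CPM in WT and 4.80 to 19.2 in BBA (Klrd1, the 1 tested, higher in BBA), the naive cell markers to 3943 to 4297 CPM in WT and 4636 to 5401 in BBA (0 of 4 called) and the T cell markers to 1471 to 1587 CPM in WT and 1642 to 1929 in BBA (0 of 4). BBA lay above WT without overlap in each of these sums, whose part in the result was not tested. The count was 6 without replicate 2 of BBA and 4 without replicate 3 of WT. Between WT and AAB 0 were called (0.637% of all genes), and 0 by DESeq2. At an unadjusted p under 0.05 were 3 of the 33 and 1072 of all 9412 genes. IL-7 cultures differed from cells without cytokine in all genotypes. In WT 5 genes fell, against 7.32% of all genes, namely Psat1 (−0.91), Mthfd2 (−0.89), Phgdh (−0.87), Atic (−0.87) and Umps (−0.75). Mthfd2 went from 57.2, 50.9 and 53.9 CPM without cytokine to 32.1, 26.8 and 29.04 with IL-7, with no overlap (log2 fold change −0.89, SE 0.10, edgeR adjusted p = 2.42e-05). Psat1 went from 31.5, 30.1 and 36.02 to 16.5, 18.1 and 16.999 CPM and Phgdh from 81.9, 82.2 and 82.3 to 44.5, 48.5 and 41.6, again without overlap. Replicate 3 of WT without cytokine was high for Atic and Umps (142, 127 and 222 CPM of Atic in the 3 libraries), and without it 2 genes were called. In AAB 5 fell, against 5.96% of all genes, namely Phgdh (−0.89), Mthfd2 (−0.80), Mthfd1 (−0.68), Mthfd1l (−0.65) and Atic (−0.60). In BBA 11 fell and Ctps2 rose, against 13.6% of all genes in either direction, and Psat1 was at 7.47, 18.5 and 7.89 CPM in the 3 BBA libraries with IL-7, the middle value apart from the others. The response of Ctps alone differed between WT and BBA (0.81, SE 0.14, edgeR adjusted p = 0.00952), against 0.892% of all genes, with 3 calls without replicate 2 of BBA with IL-7 and 2 without replicate 1 of BBA without cytokine or replicate 2 of WT with IL-7. Ctps was at 25.1, 26.3 and 23.2 CPM in WT, 24.4 and 25.7 in AAB and 29.4 and 29.04 in BBA without cytokine and 24.98, 23.3 and 23.2 CPM in WT, 25.3 and 20.4 in AAB and 14.99, 16.4 and 16.6 in BBA with IL-7. Between WT and AAB 0 responses differed (0.0190% of all genes). At an unadjusted p under 0.05 were 0 of the 33 and 340 of all 10535 genes.

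Further genes that are not among the 33 were taken from a list of 56. The list holds genes of these pathways and also Myc, a transcription factor, and the counts below include Myc. In Tcm with IL-15, 15 of the 39 tested were higher in WT than in BBA and 1 was lower. Of all genes, 12.3% were higher and 1097 of 9856 lower. Those with the largest changes were Myc (log2 fold change 2.37), Dctd, the dCMP deaminase (2.24), Nme1 (2.04), Gcsh of the glycine cleavage system (1.83) and Slc19a1, the reduced folate carrier (1.34). The 1 lower was Dck, the deoxycytidine kinase (−0.67). Against AAB, 8 of 39 were higher in WT (2.80% of all genes) and 0 lower, led by Myc (1.39), Slc19a1 (1.12) and Dctd (1.09). AAB was higher than BBA in 5 of 39 (3.12% of all genes) and lower in 0, led by Nme1 (1.31), Gcsh (1.18) and Dctd (1.15). Nme1 and Nme2 are paralogs, and both were higher in WT than in AAB and in AAB than in BBA. In Tnv with IL-15, 4 of 40 were higher in WT than in BBA (2.53% of all genes), led by Myc (2.60) and Nme1 (0.98). Tyms, the thymidylate synthase, was lower (−1.71), as were 708 of all 10021 genes. In the same cells Myc alone of the 40 was higher in WT than in AAB (1.94), against 0.389% of all genes. In Tem with IL-15, 2 of 38 were higher in WT than in BBA (1.22% of all genes), Myc (2.67) and Slc19a1 (1.17). In Tcm with IL-7, Nme1 was higher (1.48) and Dck lower (−0.82) of 39 in WT than in BBA. Of all genes there, 1.42% were higher and 169 of 10185 lower. In Tnv with IL-7 Myc (1.43) and Mat2a (0.62) were higher of 40, against 1.54% of all genes. In CD4+ cells with IL-7, Myc (1.49), Slc1a5 (0.93), Pnp (0.72) and Ada (0.63) were higher and Samhd1 (−0.66) lower of 38. Of all genes there, 2.62% were higher and 272 of 9412 lower. Without cytokine 0 of the 38 to 41 genes tested were called in any of the 8 comparisons of WT with AAB or BBA. Among all genes these had from 2 (AAB, Tem) to 268 (BBA, Tnv) calls.

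The retroviral libraries ask whether active STAT5A raises the genes in cells that lack it. These are the libraries described above in which Cd8a, Cd8b1 and Cd3e were near 0 and Ncr1 was high. Their T cell markers summed to 788 to 905 CPM with CA-STAT5A and 839 to 1004 with the empty vector. Stat5a was at 59.7 and 60.7 CPM with CA-STAT5A and 8.41 and 3.20 with the empty vector, and Stat5b at 148 and 132 and 61.8 and 73.4. Of the 33 genes, 1 was called, against 6.63% of all genes, and the median log2 fold change of CA-STAT5A over empty vector was −0.12 over the 33 genes and 0.0015 over all genes. The called gene was Ampd3, at 1.88 and 1.10 CPM with CA-STAT5A and 6.56 and 5.59 with empty vector (log2 fold change −1.99, SE 0.44, edgeR adjusted p = 0.0447). Its counts were the lowest of the 33, from 12 upwards, and it was not called without either CA-STAT5A library. Of the 8 genes with the largest difference between WT and BBA in Tcm, 0 were called. Mthfd1 was at 29.2 and 36.8 CPM with it and 37.9 and 51.3 without it (log2 fold change −0.44), and Impdh2 was at 52.1 and 70.3 with it and 79.97 and 78.6 without it (−0.38). Uck2 had the highest value at 0.70 (edgeR adjusted p = 0.0578), with 35.6 and 42.5 CPM against 25.9 and 22.1. Of the 38 further genes tested, 0 rose with CA-STAT5A, against 230 of all 10419 genes. Lower with it were 3, Myc (−0.76) and Dck (−0.64) among them, against 461 of all genes. The 4 B cell markers tested were lower with CA-STAT5A, and their list summed to 8.98 to 24.9 CPM with it and 84.9 to 137 without it. The 5 myeloid markers summed to 1419.7 to 1601 CPM with CA-STAT5A and 670.2 to 793 without it, although 3 of them (Lyz2, Csf1r and Cd68) were called as lower and 1 (Itgam) as higher. The memory and effector markers summed to 8052 to 9047 and 6112 to 6156 CPM, with Ccl5 and Gzmb of 6 higher, and the naive cell markers to 1234 to 1618 and 2055 to 2556, with Ccr7 and Tcf7 of 4 lower. The NK cell markers summed to 2918 to 3029 and 2692 to 2882 CPM, with 0 of 4 called. Cd3d and Cd3g of the 4 T cell markers tested were lower with CA-STAT5A. The part of these markers in the result was not tested.

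**Figure D5:**
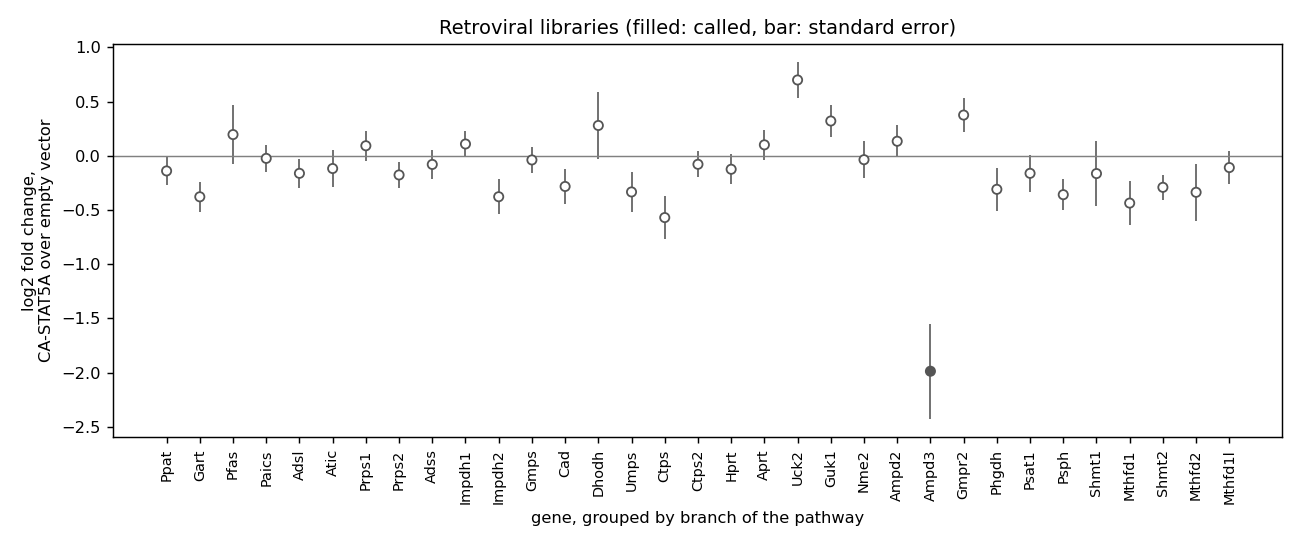
Log2 fold change of CA-STAT5A over empty vector (vertical axis) for each of the 33 genes (horizontal axis, grouped by branch) in the retroviral libraries, 2 a group. Points are fitted values, bars are standard errors and the filled point is the 1 called gene, Ampd3, at −1.99. The other values lie between −0.57 and 0.70.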

How the data were processed

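Poly(A)+ RNA of 69 mouse libraries, all labelled as T cells, was sequenced single-end. The authors aligned reads with TopHat2 and deposited raw gene counts from HTSeq. The submitters' processing notes name the build mm9 and the study's methods mm10, and the annotation and the strand setting are not given in the sources used here. Reads from overlapping or antisense genes could therefore be counted together. Rows that name no gene (67.0% to 68.4% of each retroviral column) were left out.

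The members and lists were chosen with earlier results of these data known. The deposited counts were tested with edgeR 4.0.16 (quasi-likelihood F test, TMM factors, R 4.3.3). Genes were first filtered with the Jaccard rule of HTSFilter, rewritten here (100 thresholds from 1 to 200, loess span 0.3). p-values were adjusted by the method of Benjamini and Hochberg over all genes of a fit, and a gene was called at over 1.5-fold and an adjusted p under 0.05. Genotypes were compared within each condition, responses and their differences in 1 fit for each cell state, and states over all CD8+ libraries without cytokine. CPM used TMM factors from genes that passed the same rule over a whole table. Promoters come from RefSeq (GRCm38.p6). The fits were tested on simulated data.

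Per-library values were set by rule for called genes whose groups did not overlap, at most 8 a comparison, and those of other genes or conditions beside them were chosen after their values were seen. Of the other called pathway genes, at most 5 are named. Some called genes outside the 33 are not reported here. Alternatives were filterByExpr, no filter, DESeq2 size factors, the Wald test of DESeq2 1.42.0, the replicate number as a block, 1 fit over a whole table, WT libraries only, each library left out in turn and, added after seeing the data, a sex term. The cytokine responses of AAB and BBA, and the differences in response between WT and AAB, were not refitted under these. Same-numbered libraries deviated together in 9 of 10 genotype conditions, with correlations from 0.104 to 0.751, and in the Tem culture fit. In Tcm with IL-7 the correlations ranged from −0.0623 to 0.300. The numbers were read as pairs where libraries deviated together, but all reported counts come from fits without the replicate block. These tests therefore leave the pairing out, and the block was run only as an alternative. The 38 pairs of replicates differed by more than sampling noise.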

Additional observations from a re-analysis of the deposited data

Results flagged for a closer look

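The response to a cytokine was compared between WT and BBA with an interaction term, and 20 such differences passed both limits. In Tcm with IL-15 the response in WT exceeded that in BBA for 17 genes. By size, in log2 units, these were Psat1 (1.87), Shmt2 (1.71), Mthfd1 (1.65), Cad (1.61), Ctps (1.58), Impdh2 (1.51), Shmt1 (1.51), Umps (1.43), Atic (1.28), Pfas (1.22), Mthfd2 (1.20), Gart (1.19), Phgdh (1.08), Ppat (0.98), Ampd2 (0.90), Mthfd1l (0.89) and Uck2 (0.79). Every branch but the supply of PRPP had at least 1 gene among them. In Tnv with IL-15 the difference was 1.33 for Ctps and 1.18 for Shmt2, both of which also differed in Tcm. In naive CD4+ cells with IL-7 it was 0.81 for Ctps.

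All 20 differences are positive. Several of the marker sums given with the Tcm comparison moved with genotype in the same libraries, and their part in these differences was not tested.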

How the results depend on the processing

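Counts of called genes among the 33 are given under each alternative beside the count reported. The 25 calls between WT and BBA in Tcm with IL-15 (24 to 29) and the 17 differences in response there (16 to 18) stayed within 1.5 times under every alternative other than leaving out a library. Called genes were also refitted 1 by 1, and 0 reversed direction. The call was kept by 117 of 117 with the Wald test of DESeq2, and by 116 of 117 with DESeq2 size factors or no filter. It was kept by 106 of 117 with filterByExpr, 113 of 116 with the block and 109 of 116 in 1 fit over a table. With WT libraries alone 7 of 13 kept it, and with a sex term 1 of 10. Most lost calls were in refits with 1 library left out. DESeq2 size factors moved no count by over 1.5 times. With filterByExpr, WT and AAB differed in 8 genes in Tnv with IL-15 (reported 1), and WT and BBA in 18 there (11), 14 in Tcm with IL-7 (9) and 0 in Tem with IL-15 (7). With no filter on low counts, WT and AAB differed in 4 genes of IL-7 Tcm (0) and 10 of IL-15 Tnv. WT and BBA then differed in 8 in Tnv with IL-7 (2), 23 of IL-7 Tcm and 24 of IL-15 Tnv, AAB and BBA in 21 in Tcm with IL-15 (12), and the retroviral groups in 2 (1). The response difference in Tnv then had 9 (2), and the contrast of the genotype effect between cytokines in Tnv 1 (0).

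The Wald test of DESeq2 gave for AAB 3 in Tcm with IL-7, 8 in Tnv with IL-15 and 2 in Tem with IL-15 (0). For BBA it gave 5 in Tnv with IL-7, 17 in Tcm with IL-7 and 12 in Tem with IL-15. It also gave 2 in the retroviral groups, 6 and 5 for the response difference in Tnv and Tem (2 and 0), 2 for the IL-15 response of WT Tem (0) and 2 for the contrast between cytokines in Tcm (0). The replicate block gave 7 for BBA in Tnv with IL-7, 9 for AAB in Tnv with IL-15, 2 and 12 for AAB and BBA in Tem with IL-15, 2 for the response of WT Tem and 3 for the response difference in Tem, and moved no other count by over 1.5 times. In Tcm with IL-7, where the numbers are not pairs, it gave 6. No paired analysis was possible by replicate number for the retroviral libraries because 1 control carries no number. One fit over a whole table gave 8 for BBA in Tnv with IL-7, 9 for AAB in Tnv with IL-15, 5 and 21 for AAB and BBA in Tcm with IL-7, 13 for BBA in Tem with IL-15 and 2 for the response difference in Tem. WT libraries alone gave 0 for the IL-15 response of Tcm (6). A sex term gave 0 for BBA in Tcm with IL-7 and 2 in the retroviral groups, where it sets the 2 male against the 2 female libraries, 1 of each a group, and so blocks them by sex. The causes of these changes were not tested.

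Leaving out 1 library at a time gave 0 to 1 for BBA in Tnv without cytokine, 0 in Tnv with IL-7, 0 to 18 in Tcm with IL-7, 6 to 9 in Tnv with IL-15, 0 in Tem with IL-15 and 2 to 6 in CD4+ cells with IL-7. For AAB it gave 0 to 7 in Tcm with IL-7, 0 in Tnv with IL-15 and 1 to 10 in Tcm with IL-15, and between AAB and BBA there 4 to 10. It gave 0 to 1 in the retroviral groups, 9 to 13, 0 to 3 and 1 to 3 for the response differences in Tcm, Tnv and CD4+ cells, and 0 to 4 for the contrast between cytokines in Tcm. The WT responses gave 0 to 2 to IL-15 in Tcm and in Tnv, 0 to 2 to IL-7 in Tcm, 0 in Tnv and 2 to 7 in CD4+ cells, and the states 0 to 1 for Tcm over Tnv and 0 to 2 for Tem over Tcm. With 2 libraries in most groups, leaving out 1 leaves a lone library that is assumed to vary like the others. The lowest count of a member was 48 in a CD8+ and 12 in a retroviral library, where depth limits the precision most.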

Other observations

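The 2 naive CD4+ libraries whose titles and characteristics disagree on the cytokine, 1 of AAB and 1 of BBA, had a mean log2(CPM + 1) over the 33 genes of 5.86 and 5.83. The genes took 0.218% and 0.221% of their counts. The assigned CD4+ libraries spanned 5.81 to 5.98 without cytokine and 5.40 to 5.70 with IL-7.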
